A study of Mus musculus with 4 samples.

Results

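The collagen gene family was measured in 4 lung tumors of KP mice. Its members were all genes of the count table whose symbol has the form Col, a type number, a and a chain number, which gave 44 of the 39017 genes in the table. They were divided by structure into 11 fibrillar collagens, 8 basement membrane collagens and 25 other collagens. The tumors came from male C57BL/6 mice carrying the K-ras LSL-G12D allele over a wild-type allele and floxed p53 on both alleles, and formed 1 group named Control, with 1 library per tumor. Tumors were started by 1500 viral units of Lenti.PGK-Cre, in which the ubiquitous PGK promoter drives Cre recombinase, so the cell of origin was not restricted, and were macrodissected 22 weeks and 5 days later and made into single-cell suspensions. By their labels these mice were heterozygous fl/wt at a gene that is not named. The headers of the log2 table call them WT, and by the study's methods its controls had either no floxed Slc2a1 allele or a single one. Immune and stromal cells were part of the tissue sequenced. With 1 group there was no contrast between conditions, and the comparisons below are between chains within a tumor and between the 4 tumors.

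A collagen molecule is a trimer of alpha chains wound into a triple helix, held together by regularly spaced glycines. Fibrillar collagens assemble into the cross-striated fibers that give tissue its tensile strength, and in lung they are made mainly by fibroblasts and related mesenchymal cells. Type IV collagen forms the sheet-like network of basement membranes, on which epithelium and endothelium rest. Its 6 genes lie in head-to-head pairs, each pair transcribed in opposite directions from neighboring starts.

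Total counts were 8151613 to 8799007 per tumor, and levels are given as CPM, counts scaled to 1e+06 of TMM-corrected library size, in the order of tumors 1 to 4. A count of 3, taken as the floor of detection, was worth 0.330 to 0.370 CPM. Markers of the labeled tissue were abundant. The 7 alveolar type 2 markers, genes of the surfactant-producing cells of the alveolus, summed to 31380, 54698, 51106 and 58401 CPM, and 4 epithelial markers to 3972, 2587, 2488 and 2632 CPM. In bulk tissue, fewer cells of a type and less RNA per cell cannot be told apart.

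The start regions of Col4a3 and Col4a4 and of Col4a5 and Col4a6 are shown because the genes of each pair start near each other while their levels differed, and that of Col3a1 because it was the most abundant fibrillar gene per length. Sequences are from RefSeq (GRCm38.p6), 5′ to 3′ on the strand of the named gene, and end before its first annotated exon. Capitals mark the letters of a TATA box, a CCAAT box or a GC box, in either orientation and at any position.
Col4a4, the whole interval between the starts of Col4a4 and Col4a3, chr1:82586850-82586920, minus strand: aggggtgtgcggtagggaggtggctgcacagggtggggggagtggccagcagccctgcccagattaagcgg
Col4a5, chrX:141475169-141475384, plus strand: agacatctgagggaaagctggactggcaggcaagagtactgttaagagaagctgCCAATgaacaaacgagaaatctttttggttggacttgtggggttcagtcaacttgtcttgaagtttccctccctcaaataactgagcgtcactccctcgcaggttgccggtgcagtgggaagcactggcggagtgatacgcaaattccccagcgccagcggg
Col4a6, chrX:141474077-141474326, minus strand: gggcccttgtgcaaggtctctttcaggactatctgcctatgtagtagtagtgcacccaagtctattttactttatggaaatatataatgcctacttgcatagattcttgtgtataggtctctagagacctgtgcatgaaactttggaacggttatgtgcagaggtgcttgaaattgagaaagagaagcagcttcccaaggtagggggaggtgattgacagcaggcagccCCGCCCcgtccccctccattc
Col3a1, chr1:45311288-45311537, plus strand: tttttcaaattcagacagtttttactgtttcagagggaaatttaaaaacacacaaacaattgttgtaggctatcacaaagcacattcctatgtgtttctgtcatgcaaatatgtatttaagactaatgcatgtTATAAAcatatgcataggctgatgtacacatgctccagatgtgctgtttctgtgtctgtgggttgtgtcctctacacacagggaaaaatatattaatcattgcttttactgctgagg

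None of the searched motifs stood in the Col4a3-Col4a4 interval, and Col3a1 was the only 1 of these 4 with the letters TATAAA. They stood near the middle of its 250 bases, and the search set no distance from the start. RefSeq entries were matched for 35 of the 44 collagen genes, 23 of them among the genes tested. In the 250 bases before the start, on either strand, the TATA box, searched as TATAAA, stood for 14.3% of the 35 collagen genes, 1 entry taken for each, and in 12.4% of all 32851 promoters. The CCAAT box, searched by these letters, stood for 34.3% of the collagen genes and in 33.8% of all promoters. For the GC box, searched as GGGCGG, these shares were 60% and 32.7%. For the AP-1 element, searched as TGANTCA, they were 2.86%, which was Col6a1 alone, and 6.75%. For these shares exonic bases were kept, unlike in the printed sequences, so Col4a5 counted for a GC box that its printed sequence lacks. Such matches describe letters, not binding.

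Of the 44 collagen genes, 28 had a mean of at least 1 CPM and were tested for spread, 8 of them fibrillar, 8 basement membrane and 12 other. The remaining 16 were at the edge of detection or below it. Col24a1, a fibrillar chain, had 7, 8, 9 and 4 counts and was the only untested member over 3 counts in every tumor. Col8a2, partner of Col8a1 in short-chain network collagen, had 1, 10, 7 and 6 counts, and Col13a1, a transmembrane collagen, had 3, 3, 6 and 8. Col9a3 had 6, 2, 5 and 1 counts, Col26a1 had 6, 0, 1 and 2, and Col25a1 had 2, 5, 1 and 0. At or under 3 counts in every tumor were 10 genes, Col9a1, Col28a1, Col6a5, Col17a1, Col2a1, Col22a1, Col11a1, Col19a1, Col6a4 and Col9a2. The last 3 had no count in any tumor. No count in a single library allows an expected count of up to 3, and none in all 4 allows less per library.

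Of the genes of cartilage collagen, Col2a1 and Col11a1 were thus nearly unmeasured, while Col10a1, Col11a2 and Col27a1 were tested. Col2a1, the main cartilage fibril chain, had 1 count in all 4 libraries together, as had Col11a1. Among 8 cartilage markers 3 were tested, Matn1 was at 0 in every tumor, and their sum of 36.4, 57.6, 15.9 and 41.0 CPM was mostly Sox9, which lung epithelium also expresses. Col17a1, a hemidesmosome collagen of stratified epithelium, had a single count.

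Basement membrane collagens made up most of the family's transcripts. Summed over all members per kilobase of exon, which allows levels of different genes to be compared, the family reached 393, 342, 245 and 275 CPM per kilobase (314 ± 66.7, SD, n = 4). Basement membrane collagens held 277, 251, 161 and 209 of it, or 71.4% ± 4.48 (SD, n = 4). Most of the class mean of 225 was Col4a1 and Col4a2, at means of 102 and 55.7 CPM per kilobase. Without these 2 genes the whole family averaged 156 CPM per kilobase. Fibrillar collagens held 69.8, 46.5, 45.9 and 32.9 CPM per kilobase, or 15.5% ± 3.26, and the other collagens 45.8, 44.3, 38.4 and 33.0, or 13.1% ± 1.82. Basement membrane collagens were the largest class in each of the 4 tumors, while fibrillar and other collagens lay close to each other in tumors 2 and 4. That closeness rests on exon unions: per kilobase of longest transcript, the mean fibrillar level was 78.8 CPM per kilobase and that of the other collagens 48.7. Collagen counts were 0.307% of all counts in tumor 1 (95% Wilson interval 0.303 to 0.311%), 0.250% in tumor 2 (0.246 to 0.253%), 0.187% in tumor 3 (0.184 to 0.190%) and 0.204% in tumor 4 (0.201 to 0.207%). These intervals, which cover counting error only, did not overlap.

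**Figure D1:**
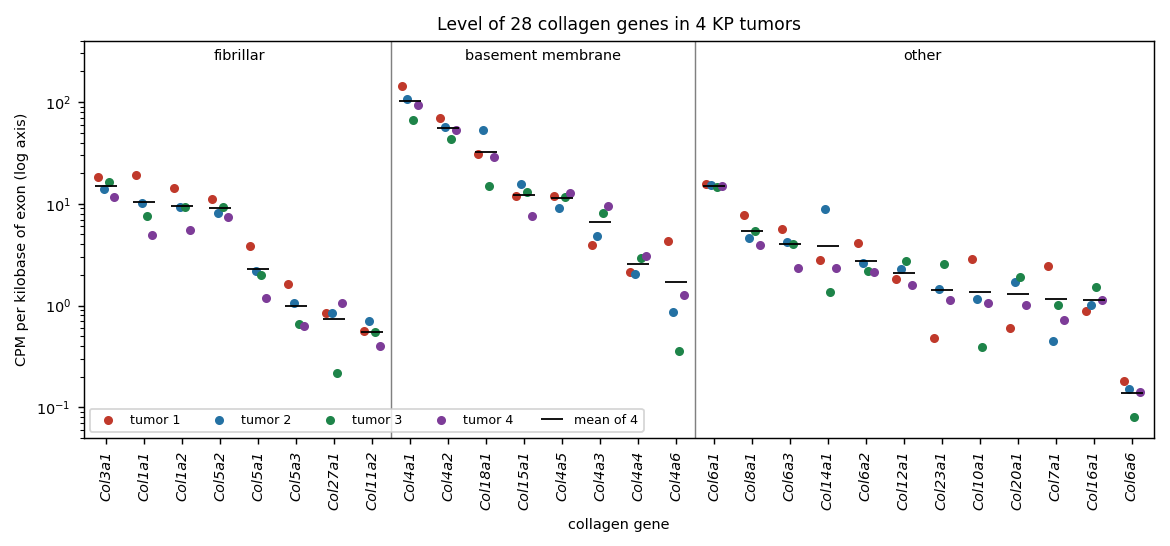
CPM per kilobase of exon (log axis) of the 28 collagen genes with a mean of at least 1 CPM, by class and in falling order of the mean, with 1 point per tumor and a bar at the mean of the 4 tumors. Col4a1, at a mean of 102, stands highest, the points of Col6a1 nearly coincide, and those of Col4a6 span 12.2-fold.

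In the order of mean level per kilobase, Col4a1 came first, followed by Col4a2, Col18a1, Col6a1 and Col3a1. The first 3 steps of this order, from Col4a1 down to Col6a1, held in 4 of 4 tumors each, for which an exact two-sided permutation of signs gives p = 0.13, the smallest value 4 tumors allow. Col6a1 and Col3a1 differed by 0.03 ± 0.27 on the log2 scale, with each above the other in 2 tumors (p = 1.0, same exact test). By exon union they thus could not be ordered. Below them, from Col15a1 to Col5a2, no neighbors kept 1 order in every tumor. Replacing exon unions by longest transcripts left 26 of the 28 genes within 3 places of their rank. It put Col3a1, at a mean of 26.5 CPM per kilobase, and Col1a2, at 22.2, above Col6a1, at 16.1.

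The type IV network was carried mainly by its ubiquitous chains. Col4a1, whose chain joins in pairs with that of Col4a2 in nearly every basement membrane, was at 1060, 808, 496 and 695 CPM. Col4a2 was at 462, 379, 285 and 348 CPM. Both were highest in tumor 1 and lowest in tumor 3. Per kilobase, Col4a1 exceeded Col4a2 in 4 of 4 tumors, by 0.85 ± 0.17 on the log2 scale (SD, n = 4; ratio 1.80; exact two-sided sign-flip permutation p = 0.13, adjusted over 11 chain pairs 0.153). These genes lie head to head on chromosome 8 with starts at 11312826 and 11312805, and their exons overlap over 22 nt on opposite strands. Whether counting used the strand was not stated, but 22 nt is small beside exon unions of 7464 and 6619 nt.

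The chains of the specialized type IV networks showed another order among the tumors. Col4a3, whose chain joins those of Col4a4 and Col4a5 in the basement membranes of alveolus and glomerulus, was at 39.1, 48.2, 80.6 and 95.7 CPM. Col4a4 was at 22.9, 21.8, 31.5 and 32.5 CPM. For both, tumors 3 and 4 were above tumors 1 and 2. Col4a5 was at 80.3, 60.6, 77.6 and 84.9 CPM, a range of 1.4-fold. Of the summed type IV level per kilobase, Col4a1 and Col4a2 made up 90.5, 90.8, 82.7 and 84.6%, and Col4a3, Col4a4 and Col4a5 together 7.70, 8.73, 17.1 and 14.7%. The difference between Col4a3 and Col4a1 per kilobase, a pair added after the values were seen, was −5.18, −4.48, −3.04 and −3.28 on the log2 scale. It was thus negative in every tumor and smallest in size in tumor 3.

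Col4a3 exceeded Col4a4 per kilobase by 1.30 ± 0.34 on the log2 scale (SD, n = 4), in 4 of 4 tumors, although their starts on chromosome 1 are only 72 nt apart. Col4a5 exceeded Col4a3 in 4 of 4 tumors, by a log2 difference of Col4a3 minus Col4a5 of −0.85 ± 0.55. For both pairs p was 0.13 by the exact two-sided sign-flip permutation test, the smallest it can give, and 0.153 adjusted over the 11 pairs. An antisense gene, C430014B12Rik, overlaps 563 nt of Col4a3 exons and was itself at no more than 1.65 CPM. Alveolar type 1 markers, of the flat gas-exchange cells that rest on this network, were tested for 6 of 6 genes and summed to 1710, 1097, 1969 and 1651 CPM. Of these 6, 4 were highest in tumor 3, 2 in tumor 4, and all 6 lowest in tumor 2. Among all genes tested these shares were 30.1%, 18% and 19.4%. The part of alveolar type 1 cells in the levels of Col4a3 and Col4a4 was not tested.

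**Figure D2:**
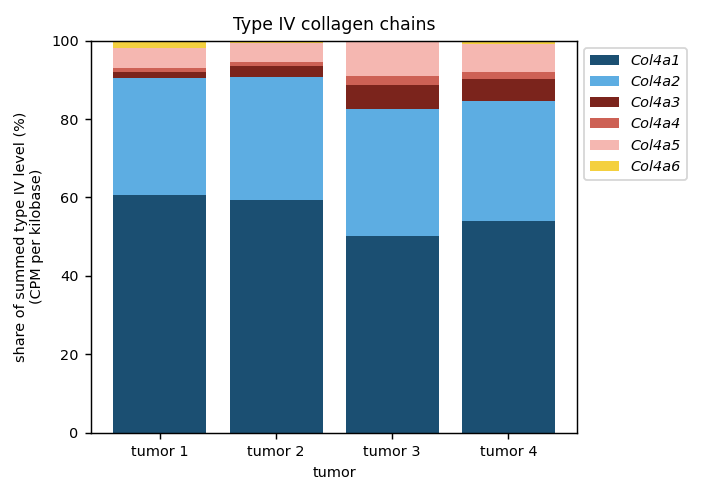
Share of each of the 6 type IV chains in their summed CPM per kilobase, as stacked bars, 1 per tumor. Col4a1 and Col4a2 fill 82.7 to 90.8%, and the Col4a3, Col4a4 and Col4a5 segments are larger in tumors 3 and 4 than in tumors 1 and 2.

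Col4a6 had the widest spread of the 28 collagen genes tested. Its chain joins that of Col4a5 in basement membranes of smooth muscle, skin and bronchus. It was at 34.6 CPM in tumor 1, 6.97 in tumor 2, 2.84 in tumor 3 and 10.1 in tumor 4. Tumor 1 was above the other 3, and tumor 3 below them, a 12.2-fold range. The SD of log2 CPM of 1.48 placed it 356th of the 14225 genes tested. Col4a5, whose start lies 1309 nt away on the X chromosome, varied over 1.4-fold only, and the log2 difference of Col4a5 minus Col4a6 per kilobase was accordingly 1.46, 3.36, 4.99 and 3.31 (mean 3.28 ± 1.44, SD, n = 4; exact two-sided sign-flip permutation p = 0.13, adjusted 0.153). In tumor 1 the 5 basal and squamous markers, keratins and factors of stratified epithelium, summed to 29.2 CPM, against 0.929, 1.36 and 2.97 CPM in tumors 2 to 4. Krt14, at 191 counts, and Krt6a, at 70 counts, made up nearly all of the sum in tumor 1 and were the 2 markers tested. Trp63, the lineage factor of basal cells, ran the other way, with 0, 1, 3 and 9 counts, Krt5 had 4, 1, 2 and 2 counts, and Dsg3 had no count in any tumor. The part of these genes in the level of Col4a6 was not tested.

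The multiplexins, heparan sulfate or chondroitin sulfate proteoglycan collagens of the basement membrane zone, completed the class. Col18a1, precursor of the fragment endostatin, was at 219, 375, 105 and 203 CPM, highest in tumor 2 and lowest in tumor 3, 3.58-fold apart. Col15a1 was at 76.4, 99.9, 82.9 and 48.6 CPM, also highest in tumor 2, but lowest in tumor 4. Per kilobase Col15a1 was below Col18a1 in 4 of 4 tumors, by a log2 difference of −1.31 ± 0.78, but by only −0.19 in tumor 3. Endothelial markers, 8 of 8 tested, summed to 291, 287, 360 and 273 CPM, and their part in the levels of both genes was not tested.

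The fibrillar collagens were highest in tumor 1 and lowest in tumor 4. Tumor 4 was the lowest for 7 of the 8 tested, where it was the lowest for 17.7% of all genes tested. Among these 7, Col5a3 had 36 counts in both tumors 3 and 4, and the spread of Col11a2 did not exceed counting noise. Tumor 1 was the highest for 6 of the 8, and for 31.4% of all genes. The summed fibrillar level per kilobase differed 2.12-fold between these tumors.

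Type I collagen, the main fibril of connective tissue, consists of chains from Col1a1 and Col1a2. Col1a1 was at 125, 66.9, 49.4 and 32.2 CPM, falling 3.88-fold from tumor 1 to tumor 4. Col1a2 was at 177, 115, 116 and 68.9 CPM. Both were highest in tumor 1 and lowest in tumor 4, and tumors 2 and 3 lay between. Per kilobase of exon union the chains differed by 0.02 ± 0.33 on the log2 scale (Col1a1 minus Col1a2, SD, n = 4), with Col1a1 above in 2 of 4 tumors (exact two-sided sign-flip permutation p = 1.0, adjusted 1.0). Per kilobase of longest transcript Col1a1 was below Col1a2 in 4 of 4 tumors by a log2 difference of −1.05, since the exon union of Col1a2 is 12426 nt and its longest transcript 5348 nt. The order of the type I chains thus depended on the length chosen. Col1a2 transcripts also share stretches of up to 85 nt with transcripts of 48 other genes, so a part of its reads may have been lost or split.

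Col3a1, the chain of the type III homotrimer of compliant tissue, was at 180, 136, 159 and 115 CPM. Col3a1 minus Col1a1 per kilobase was −0.06, 0.45, 1.11 and 1.25 on the log2 scale (mean 0.69 ± 0.61, SD, n = 4; exact two-sided sign-flip permutation p = 0.25, adjusted 0.275). Tumor 1 was the only 1 in which Col1a1 reached the level of Col3a1 by exon union, and with longest transcripts Col3a1 was above in 4 of 4.

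Type V collagen sets fibril diameter by co-assembling with type I. Its chain gene Col5a2 was at 107, 78.6, 89.1 and 70.6 CPM, within a 1.51-fold range. Col5a1 was at 32.9, 18.7, 16.8 and 10.1 CPM, and Col5a3 at 11.2, 7.20, 4.44 and 4.28 CPM. Col5a1 and Col5a3 spread more widely than Col5a2, 3.25-fold and 2.62-fold, with tumor 1 highest and tumor 4 lowest for all 3. Per kilobase Col5a2 was above Col5a1 and Col5a1 above Col5a3 in 4 of 4 tumors, with log2 differences of −2.07 ± 0.47 for Col5a1 minus Col5a2 and −1.19 ± 0.29 for Col5a3 minus Col5a1 (SD, n = 4; exact two-sided sign-flip permutation p = 0.13 and adjusted 0.153 for each).

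The minor fibrillar chains departed from this order. Col27a1, best known from developing cartilage, was at 11.1, 11.0, 2.84 and 13.9 CPM. It was low in tumor 3 alone and highest in tumor 4, and was the only collagen gene with 1 tumor set apart by Dixon's ratio, as 5.86% of all genes tested had. Col11a2 was at 3.85, 4.88, 3.83 and 2.74 CPM, a spread that did not exceed counting noise (chi-square test, adjusted p = 0.191).

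Fibroblast markers ran in another order than the fibrillar collagens. The 8 markers of resting lung fibroblasts summed to 144, 276, 434 and 160 CPM, of which Gpc3 alone was 118, 243, 312 and 105 CPM. Tumor 3 was the highest for 7 of the 7 tested, where it was the highest for 30.1% of all genes. Tumor 1 was the lowest for 4 of 7, against 30.3% of all genes. None of the 8 was at 0 everywhere. Activated fibroblast markers, 7 of 8 tested, summed to 529, 225, 590 and 280 CPM. Tumor 1 was highest for 3 and tumor 3 highest for 3, against 31.4% and 30.1% of all genes. Most of the activated fibroblast sum was Acta2, at 300, 99.0, 372 and 106 CPM, and Postn, at 136, 77.5, 164 and 123 CPM. Pericyte and smooth muscle markers, 8 of 8 tested, summed to 141, 128, 159 and 127 CPM. By gene, tumor 1 was highest for 5 of 8 and tumor 4 lowest for 5 of 8, against 31.4% and 17.7% of all genes. No marker of these last lists was at 0 in all tumors. The part of any of these cells in the spread of the fibrillar collagens was not tested.

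**Figure D3:**
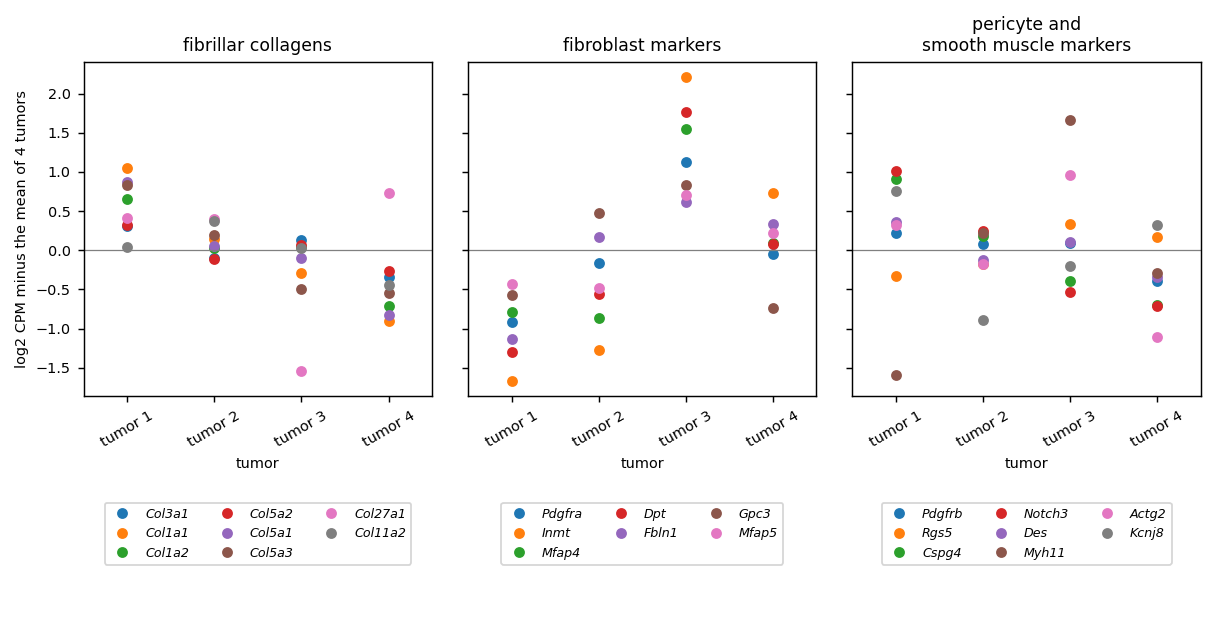
Log2 CPM minus the mean of the 4 tumors for the 8 fibrillar collagens, 7 fibroblast markers and 8 pericyte and smooth muscle markers tested, with 1 point per gene and tumor. Fibrillar collagens lie above 0 in tumor 1 and, but for Col27a1, below 0 in tumor 4, whereas all fibroblast markers peak in tumor 3.

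Among the other collagens, type VI, which forms beaded filaments around cells, was the most abundant, and its chain genes differed in spread. Col6a1 was at 68.2, 66.6, 64.0 and 65.8 CPM, a 1.07-fold range, and its spread did not exceed counting noise (chi-square test, adjusted p = 0.780). Its SD of log2 CPM of 0.04 ranked 14159th of 14225 genes. Col6a2 was at 34.4, 21.7, 18.4 and 17.8 CPM and Col6a3 at 67.6, 50.2, 48.0 and 28.3 CPM. Both were highest in tumor 1 and lowest in tumor 4, but Col6a2 was nearly equal in tumors 3 and 4, at 149 and 150 counts. Col6a1 thus kept nearly 1 level while the other chains of the same trimer spread 1.93-fold and 2.39-fold. Per kilobase Col6a1 was above Col6a2 by 2.50 ± 0.40 on the log2 scale and Col6a3 below Col6a1 by a difference of −1.96 ± 0.50, each in 4 of 4 tumors (SD, n = 4; exact two-sided sign-flip permutation p = 0.13 and adjusted 0.153 for each). Col6a6 was at 1.65, 1.39, 0.740 and 1.31 CPM and its spread did not pass the test either (chi-square test, adjusted p = 0.440).

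Fibril-associated collagens coat the surface of fibrils. Col14a1 was at 19.5, 63.1, 9.63 and 16.5 CPM, with tumor 2 above the other tumors and a 6.55-fold range. Col12a1 was at 28.1, 35.0, 41.5 and 24.3 CPM and Col16a1 at 5.94, 6.85, 10.4 and 7.61 CPM, both highest in tumor 3. Col20a1 was at 3.08, 8.71, 9.87 and 5.23 CPM. Its value is uncertain, because BX649560.1, annotated on the same strand and sharing 79 nt of exon, was at 2.64, 7.90, 9.26 and 5.11 CPM, close to Col20a1 in each tumor.

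Of the short-chain network collagens, Col8a1, made by endothelium and smooth muscle, was at 61.5, 36.0, 42.0 and 30.7 CPM. Col10a1, a marker of hypertrophic cartilage, was at 9.02, 3.60, 1.23 and 3.33 CPM, a 7.31-fold range with tumor 1 highest. Of its exons 18 nt overlap Nt5dc1 on the opposite strand, which was at 16.7 to 34.6 CPM.

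Col7a1, the anchoring fibril collagen that fastens stratified epithelium to its stroma, was at 25.4, 4.65, 10.5 and 7.49 CPM. It was highest in tumor 1, as were Col4a6, Krt14 and Krt6a, but not Trp63, and the part of such cells in it was not tested. Col23a1, a transmembrane collagen of epithelia, ran the other way, at 2.75, 8.36, 14.7 and 6.54 CPM, lowest in tumor 1 and highest in tumor 3.

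**Figure D4:**
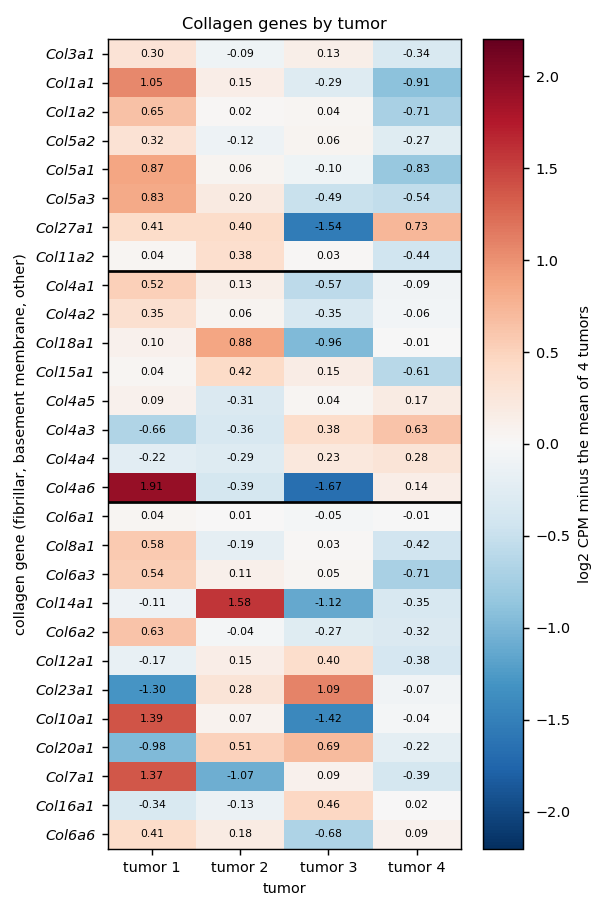
Log2 CPM of each tested collagen gene in each tumor minus its mean over the 4 tumors, as colored cells with the value written in, and black lines between fibrillar, basement membrane and other collagens. Most fibrillar rows are above 0 in tumor 1 and below 0 in tumor 4, Col4a6 spans from 1.91 in tumor 1 to −1.67 in tumor 3, and the Col6a1 row is near 0.

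Across the family, counts spread beyond counting noise for 25 of the 28 genes tested (chi-square test against Poisson expectations, Benjamini-Hochberg over 14225 genes), where 76.7% of all genes tested did. This test asks only whether 4 tumors differ by more than read sampling, and abundant genes pass it easily. Among genes of at least 10 CPM, 19 of 20 collagen genes and 85.3% of all genes passed. The size of the spread was read separately. The highest tumor was more than 2 times the lowest for 18 of the 28 collagen genes and for 28.5% of all genes tested. The median SD of log2 CPM was 0.50 for the collagen genes and 0.29 over all genes. The median biological coefficient of variation, an estimate of the spread beyond counting noise, was 32.8% and 25.7%. Each gene's estimate was moderated toward the trend over all genes. Col6a1, whose spread did not exceed counting noise, still got 17.1%. By class the median SD was 0.60 for fibrillar, 0.45 for basement membrane and 0.50 for other collagens.

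Tumor 1 was the highest for 16 of the 28 collagen genes, against the 31.4% of all genes given above. Tumors 2, 3 and 4 were the highest for 4 each, against 20.4%, 30.1% and 18% of all genes. Tumor 4 was the lowest for 12 of the 28, against 17.7%, and tumor 3 for 9, against 32.6%. Tumor 1 was the lowest for 4, against 30.3%, and tumor 2 for 3, against 19.4%. In basement membrane collagens the lowest tumor was tumor 3 for 4 of 8 and tumor 4 for 1 of 8, in the other collagens each of these was the lowest for 4 of 12, and in the fibrillar class tumor 4 was the lowest for 7 of 8. The difference between the classes was not tested.

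**Figure D5:**
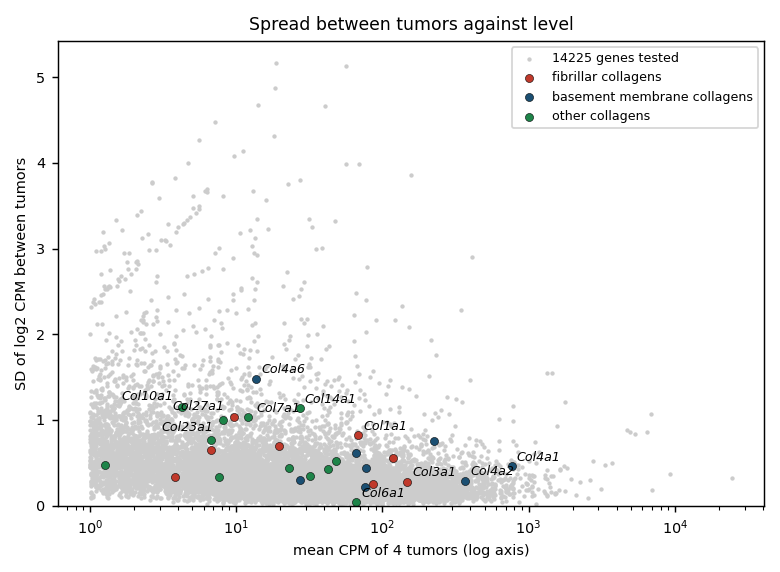
SD of log2 CPM between the 4 tumors against mean CPM (log axis) for the 14225 genes tested, in gray, with the 28 collagen genes colored by class. Col4a6, Col10a1 and Col14a1 are the highest collagen points, while Col6a1 lies near the bottom at 0.04.

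Genes that modify, fold, cut, cross-link and bind collagens were followed in 6 lists of 66 genes, of which 62 were tested. Counts spread beyond noise for 51 of them, against the 76.7% of all genes, and their median SD of log2 CPM was 0.41. Tumor 1 was highest for 25 of the 62, against 31.4% of all genes.

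Prolyl and lysyl hydroxylation stabilizes the helix and prepares cross-links. All 15 genes of this list were tested and 8 spread beyond noise, against 76.7% of all genes. The most abundant per length was P4hb, protein disulfide isomerase and the beta subunit of prolyl 4-hydroxylase, at 1575, 1717, 1402 and 1385 CPM. Ppib, a prolyl isomerase of the 3-hydroxylation complex, was at 251, 359, 238 and 254 CPM, and Colgalt1, which adds galactose to hydroxylysine, at 205, 229, 234 and 213 CPM. The widest spread was in P3h4, a partner of lysyl hydroxylase, at 34.2, 22.1, 6.17 and 22.8 CPM. P4ha2, a catalytic subunit of prolyl 4-hydroxylase, was at 65.9, 63.3, 123 and 65.2 CPM, high in tumor 3 alone. P3h2, which acts on basement membrane collagen, was at 29.9, 30.2, 30.5 and 33.4 CPM and its spread did not exceed counting noise.

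Folding and export genes, 12 of 12 tested, all spread beyond noise, as 76.7% of all genes did. Tumor 3 was lowest for 8 of them, against 32.6% of all genes, and highest for 2, Mia3 and Tmem38b. Serpinh1, the collagen chaperone HSP47, was at 363, 251, 208 and 229 CPM. Sparc, a collagen-binding matricellular protein, was at 1095, 997, 804 and 958 CPM. Both were highest in tumor 1 and lowest in tumor 3. Creb3l1, a transcription factor of secretory load, was at 64.8, 107, 38.3 and 86.2 CPM. Fkbp10, a procollagen isomerase, spread most, at 66.6, 38.1, 8.51 and 31.6 CPM, and Sec24d, a coat protein of procollagen carriers, was at 75.0, 71.7, 38.0 and 70.2 CPM. Tumor 3, lowest for these 5 genes and for Col4a1, Col4a2 and Col18a1, was not the lowest for the abundant fibrillar chains.

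Procollagen processing genes were highest in tumor 3 for 5 of 5 tested, against 30.1% of all genes. Adamts3 had 21 counts in both tumors 1 and 3. All 5 spread beyond noise, against 76.7%, a test that does not ask which tumor is highest. The list holds 8 genes, of which Tll2 had no count. Bmp1, the C-proteinase, was at 189, 202, 217 and 177 CPM. Pcolce, its enhancer, was at 26.4, 28.9, 47.8 and 43.3 CPM, and Pcolce2 at 0.880, 1.28, 5.31 and 2.26 CPM. Adamts2, an N-proteinase, was at 12.5, 11.0, 16.2 and 10.1 CPM, and Adamts3 at 2.31, 1.98, 2.59 and 0.476 CPM.

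Cross-linking enzymes, 7 of 7 tested, gave no common order. Beyond noise were 5 of them, against 76.7% of all genes. Tgm2, a transglutaminase, was at 121, 186, 186 and 155 CPM, and Lox, lysyl oxidase, at 29.4, 23.0, 33.6 and 24.4 CPM. Pxdn, which forms the sulfilimine bond of type IV collagen, was at 49.6, 44.8, 34.8 and 49.1 CPM. Loxl2, which also acts on type IV collagen, was at 7.81, 4.07, 3.83 and 3.21 CPM.

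Of 12 receptor genes 11 were tested and 10 spread beyond noise, against 76.7% of all genes. Itgb1, the common beta subunit, was at 846, 914, 1248 and 894 CPM, and Itga2, its partner on epithelium, at 255, 286, 123 and 170 CPM. Adgrg1, an adhesion receptor for type III collagen, was at 291, 364, 317 and 308 CPM. Itga11, the fibroblast receptor for fibrillar collagen, was at 0.660, 0.116, 1.48 and 1.90 CPM, under the floor of 3 counts in tumor 2. Lair1, a leukocyte inhibitory receptor for collagen, was at 4.84, 9.99, 11.1 and 9.75 CPM. Leukocyte markers, 5 of 5 tested, were likewise lowest in tumor 1 in sum, at 515, 820, 794 and 712 CPM, and macrophage markers, 6 of 6 tested, at 115, 130, 258 and 147 CPM. Lcp1, at 412, 696, 542 and 568 CPM, made up most of the leukocyte sum. By gene, tumor 1 was lowest for 4 of the 5 leukocyte markers, against 30.3% of all genes. Tumor 3 was highest for 4 of these 5, against 30.1%. The part of leukocytes and macrophages in the level of Lair1 was not tested.

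Matrix partners, 12 of 12 tested, had no common order either. Beyond noise were 11 of them, against 76.7% of all genes. Fn1, fibronectin, was at 1314, 958, 593 and 518 CPM, highest in tumor 1 and lowest in tumor 4 as were the type I chains. Bgn, biglycan, was at 402, 1268, 239 and 612 CPM, with tumor 2 highest, as for Col14a1. Nid1, nidogen, which ties laminin to type IV collagen, was at 128, 133, 75.4 and 69.7 CPM. Mesothelial markers, 3 of 5 tested, summed to 39.6, 22.4, 21.5 and 114 CPM, of which Msln alone was 33.7, 15.8, 18.4 and 109 CPM, while Upk3b was highest in tumor 2 and lowest in tumor 3. Nerve and Schwann cell markers, 2 of 5 tested and Sox10 at 0, summed to 4.73, 6.50, 9.38 and 10.5 CPM.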

How the data were processed

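Transcripts were counted in 4 bulk KP tumors of 1 group, 1 library each, so no groups were compared. Libraries were made from 500 ng of total RNA with a stranded polyA kit. Per the labels, the authors demultiplexed with bcl2fastq 2.17, trimmed with cutadapt 1.4.2, aligned to mm10 with HISAT2 and counted with featureCounts 1.4.4. The strand setting and annotation release were not given in the sources used here. The deposited counts are raw counts per gene. Combined and single-tumor tables held equal values in 156068 of 156068 cases. The deposited log2 table, TMM and voom values per the authors' methods, served as an alternative.

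CPM used TMM sizes from edgeR 4.0.16 (R 4.3.3). Log2 CPM had 0.5 added to counts and 1 to sizes. Genes with a mean of at least 1 CPM were tested (14225). Spread beyond counting noise was tested by chi-square on 3 degrees of freedom with Benjamini-Hochberg adjustment and a threshold of 0.05. Biological coefficients of variation were square roots of edgeR tagwise dispersions, moderated toward the trend over all genes, with an intercept-only design. A tumor was called apart above Dixon's critical ratio for 4 samples. Exon unions, transcript lengths and overlaps are from GENCODE M21 on GRCm38, the build mm10, and copies of at least 80 nt at 97% identity from BLAST 2.17.0. Chain pairs were compared per kilobase by exact two-sided sign-flip permutation (11 of 15 chosen pairs had both chains tested, Benjamini-Hochberg over the 11, scipy 1.17.1). Printed promoter sequences were stripped of bases exonic in GENCODE M21, and those of Col4a1 and Col4a2 held none outside exons. Motif shares were counted over all 250 bases, exonic ones included. Scripts were tested on simulated data.

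The members and lists were chosen with earlier results of these data known. The lists are fibroblast, activated fibroblast, pericyte and smooth muscle, endothelial, mesothelial, cartilage, epithelial, alveolar type 2, alveolar type 1, basal and squamous, leukocyte, macrophage, nerve and Schwann, and 6 collagen pathway lists; 149 of 149 entries were matched, 8 by identifier. Named are all collagens, with values where tested, and of each pathway list the 3 highest per kilobase, the most spread and any with 1 tumor apart. Of marker lists, sums and members at 0 are given. Krt14, Krt6a, Krt5, Trp63, Sox9, Msln, Upk3b, Lcp1, Acta2, Postn, Gpc3, Mia3 and Tmem38b were named after their values were seen. Nothing in the labels says whether tumors came from separate mice, and p-values measure only the spread between these 4 samples. Reads had no molecular identifiers, so intervals and floors (3 counts) cover counting error only. Alternatives were DESeq2 1.42.0 size factors, totals only, filters, transcript lengths, dispersions, class borders and leaving out each tumor.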

Additional observations from a re-analysis of the deposited data

Results flagged for a closer look

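Dixon's limit was passed by 10 of 91 values checked (list means, tested collagen genes and named pathway genes). Chance alone flags about 5% of groups, but 6 of the 10 are pathway genes that the naming rule took in because a tumor stood apart (Ppib also for its level), so the count cannot be read against that share. Col27a1 was low in tumor 3, at 2.84 CPM. In tumor 1 the alveolar type 2 list was low, at a mean log2 CPM of 10.80, as was Lair1, at 4.84 CPM. In tumor 3 the endothelial list was high, at a mean log2 CPM of 5.17, and P4ha2 high, at 123 CPM, while the folding and export list was low, at a mean log2 CPM of 5.61, with Sec24d, 1 of its genes, at 38.0 CPM. Ppib was high in tumor 2, at 359 CPM. In tumor 4 Adamts3 was low, at 0.476 CPM, or 4 counts, and P3h2 high, at 33.4 CPM, although its counts did not spread beyond noise.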

How the results depend on the processing

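No paired analysis was possible because the samples form 1 group. Of 142 recomputed values, 133 kept their direction and side of the threshold or moved by less than the spread between tumors. With a moderated edgeR dispersion above the common one in place of chi-square, 15 of the 28 collagen genes varied, against 34.8% of all genes. This rule is stricter by construction. Genes with 1 tumor apart numbered 5 with no filter, where low counts enter, and 0 at a mean of at least 10 CPM, which leaves Col27a1 untested. With longest transcripts, the summed level rose to 78.8 CPM per kilobase for fibrillar and 48.7 for other collagens, since shorter lengths raise it. Without Col4a1 and Col4a2, chosen after the data were seen, the family summed to 156 CPM per kilobase. The log2 difference of Col1a1 minus Col1a2 turned to −1.05 with longest transcripts, and to −0.11 and −0.02 without tumor 1 or 2.

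Leaving out each tumor in turn left 23 to 25 collagen genes and 43 to 50 pathway genes beyond counting noise, a median biological coefficient of variation of 27.5 to 33.7%, a summed level of 284 to 337 CPM per kilobase and a Col1a1 minus Col1a2 difference of −0.11 to 0.13. The other pairs kept their direction each time. Without tumors 1, 2, 3 and 4 in turn, 62.3, 71.2, 62.4 and 71.9% of all genes spread beyond noise, against 76.7% with all 4. The biological coefficient of variation common to all genes, a fitted value and not a median, was then 27.5, 32.7, 26.8 and 34.5%.

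All values are of 1 group with 1 library per tumor, and technical spread cannot be told apart from differences between tumors. Collagen genes under 0.330 to 0.370 CPM were below the floor at this depth. Lengths are annotated, not measured in these tumors, and values per kilobase rest on them. With 4 tumors no chain comparison can pass 0.05 by the exact permutation test.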
